A study of Homo sapiens with 12 samples.

Results

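The 9 genes described here code for the hemidesmosome and its surroundings in RT4, a long-established human bladder cancer line: ITGB4, ITGA6, COL17A1, DST, PLEC, LAMA3, LAMB3, CD151 and ITGA3. They were taken by symbol from a fixed list, which no threshold on measured values set but which was drawn up with earlier results of these data known. Their Ensembl identifiers were found for all 9 among 61757 genes that both count tables hold. RNA was sequenced in 2 experiments of 6 libraries each. In the overexpression experiment, 3 libraries came from RT4 cells carrying a Flag-ITGB4 plasmid and 3 from RT4 cells given an empty Flag vector, with cells of both groups grown in a McCoy-type medium with fetal bovine serum. In the resistance experiment, 3 libraries came from cisplatin-resistant RT4 cells treated with cisplatin and 3 from parental RT4 cells treated with PBS, with cells of both groups grown in MEM with fetal bovine serum. The labels give no dose or time of cisplatin, call the treatment of the overexpression cells a transfection or infection without saying which, and do not say whether any line was a single clone. The titles of all 6 overexpression libraries name ITGB4, while a group label of libraries 2 and 3 in each arm names ITGB5 or ITGB6. The parental columns are identified by inference, as the only control columns in the table with the resistant ones, and are called libraries a, b and c.

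Hemidesmosomes are the junctions by which epithelial cells hold on to the basement membrane. Their receptor is the integrin α6β4, made of ITGA6 and ITGB4, whose long β4 tail binds plectin (PLEC). In the full, type I hemidesmosome of stratified epithelia and urothelium, collagen XVII (COL17A1) and the epithelial isoform of dystonin (DST, also called BPAG1e) join it, and plectin and dystonin tie the complex to keratin filaments. The ligand is laminin-332, which holds the chains coded by LAMA3 and LAMB3. ITGA3, as α3β1, is the other main receptor for it, and the tetraspanin CD151 associates with both integrins at the cell surface.

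Library totals were 22701466 to 33352045 counts in the overexpression table and 31824582 to 38199946 in the resistance table. Of 13 urothelial and epithelial markers, 12 stood at 1 CPM (counts scaled to the library size) or more in every group, and UPK1A was the exception. Summed fibroblast and smooth muscle markers were 29.3 to 32.1 CPM in plasmid libraries, with DCN and LUM at 0, and 51.0 to 55.0 CPM in vector libraries, with MYH11 at 0. They were 6.97 to 8.04 CPM in resistant libraries and 12.7 to 13.2 CPM in parental libraries. COL3A1 held most of the sum in the overexpression experiment, at 18.2 CPM in plasmid libraries and 45.9 CPM in vector libraries, and its part in the results below was not tested. Endothelial markers summed to at most 2.51 CPM in any library, and leukocyte markers to at most 1.01 CPM.

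With plasmid over vector, all 9 genes passed the test at an adjusted p under 0.05 (edgeR quasi-likelihood test, Benjamini-Hochberg adjustment over 16950 genes), with 7 higher and 2 lower. The background was high: 72.2% of all genes tested were called (36.5% higher and 35.7% lower), and 84.6% of those with a mean of at least 30 CPM. The libraries of the groups did not overlap for any of the 9 genes, as for 74.5% of all genes. A count of 9 is near that background, so the sizes are described below. The median log2 fold change of the 9 genes was 0.58, against 0.00 for all genes tested, and their median absolute change was 0.59, against 0.39. With resistant over parental, all 9 again passed, with 4 higher and 5 lower, against a background of 54.5% of 16875 genes called (26.8% higher and 27.7% lower) and 73.3% of those of at least 30 CPM. The groups did not overlap for any of the 9, against 60.8% of all genes. Their median log2 fold change was -0.29, against 0.02, and their median absolute change was 0.32, against 0.36. The values below are CPM scaled by TMM factors, and each ± is the SD over 3 libraries unless it is named as an approximate standard error (SE).

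ITGB4, the β4 subunit (chromosome 17, 75721328 to 75757818, plus strand, GENCODE 29 on GRCh38), stood at 1485, 1379 and 1416 CPM in plasmid libraries, against 857.6, 879.4 and 870.7 CPM in vector libraries. Every plasmid library lay above every vector library. The log2 fold change was 0.71 ± 0.026 (approximate SE, edgeR adjusted p = 2.22e-13), or 1.64-fold. Counts per gene do not separate reads of the plasmid from reads of the cells' own ITGB4 gene. In resistant libraries ITGB4 stood at 847.8, 830.9 and 832.4 CPM, against 601.9, 597.8 and 600.3 CPM in parental libraries. These groups did not overlap either, and the log2 fold change was 0.48 ± 0.033 (approximate SE, edgeR adjusted p = 1.45e-09), or 1.40-fold.

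ITGA6, its partner (chromosome 2, 172427354 to 172506282, plus strand), stood at 535.9, 569.7 and 551.0 CPM in plasmid libraries, against 454.6, 461.2 and 459.7 CPM in vector libraries. All 3 plasmid libraries were higher, by 1.20-fold (log2 0.27 ± 0.026, approximate SE, edgeR adjusted p = 7.18e-08). In resistant libraries ITGA6 stood at 92.55, 100.8 and 111.2 CPM, against 128.2, 131.2 and 130.7 CPM in parental libraries. All 3 resistant libraries were lower, by 1.28-fold (log2 -0.36 ± 0.057, approximate SE, edgeR adjusted p = 4.19e-05). With library sizes alone in place of TMM factors the log2 value was -0.19 (edgeR adjusted p = 0.00954). Thus ITGA6 rose with ITGB4 in the plasmid cells and fell in the resistant cells, in which ITGB4 was higher. Exons of 3 antisense genes share 174, 125 and 52 bases with the ITGA6 exons, each counted separately. Reads there cannot be assigned to a strand in the overexpression table.

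ITGA3, the α3 subunit (chromosome 17, 50055968 to 50090481, plus strand), was higher in both experiments. It stood at 2413, 2199 and 2280 CPM in plasmid libraries, against 1605, 1615 and 1607 CPM in vector libraries, a log2 fold change of 0.51 ± 0.028 (approximate SE, edgeR adjusted p = 3.45e-11). In resistant libraries it stood at 1895, 1798 and 1836 CPM, against 1491, 1486 and 1467 CPM in parental libraries, a log2 fold change of 0.32 ± 0.031 (approximate SE, edgeR adjusted p = 1.77e-07). Neither pair of groups overlapped. With library sizes alone, the log2 value in resistance was 0.48. ITGB1, the β1 subunit that pairs with ITGA3 and can pair with ITGA6, did not pass the test with plasmid over vector, at 381 ± 2.22 CPM in plasmid libraries and 395 ± 7.11 CPM in vector libraries (log2 -0.05, edgeR adjusted p = 0.0732). In the resistance experiment ITGB1 was 1.11-fold lower, at 199 ± 14.6 CPM in resistant libraries and 221 ± 3.48 CPM in parental libraries (log2 -0.15, edgeR adjusted p = 0.0136). This small change was not examined singly under other scalings. Library sizes alone moved the median log2 fold change of all genes in resistance to 0.18, against 0.02 with TMM factors.

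CD151, the tetraspanin partner (chromosome 11, 832843 to 839831, plus strand), stood at 54.16, 50.27 and 52.60 CPM in plasmid libraries, against 32.10, 36.11 and 35.48 CPM in vector libraries. It was higher in all 3 plasmid libraries, by 1.51-fold (log2 0.59 ± 0.046, approximate SE, edgeR adjusted p = 4.15e-09). In resistant libraries CD151 stood at 62.86, 59.86 and 55.83 CPM, against 70.79, 71.63 and 75.12 CPM in parental libraries. It was lower in all 3 resistant libraries, by 1.22-fold (log2 -0.29 ± 0.056, approximate SE, edgeR adjusted p = 0.00031). This call was lost with library sizes alone in place of TMM factors (log2 -0.12, edgeR adjusted p = 0.0681), and the log2 value was -0.18 with upper-quartile factors. Library sizes alone moved the median log2 fold change of all genes to 0.18, against 0.02 with TMM factors. POLR2L, on the opposite strand, shares 257 bases of exon with CD151, which is 6.53% of the CD151 exon bases.

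**Figure D1:**
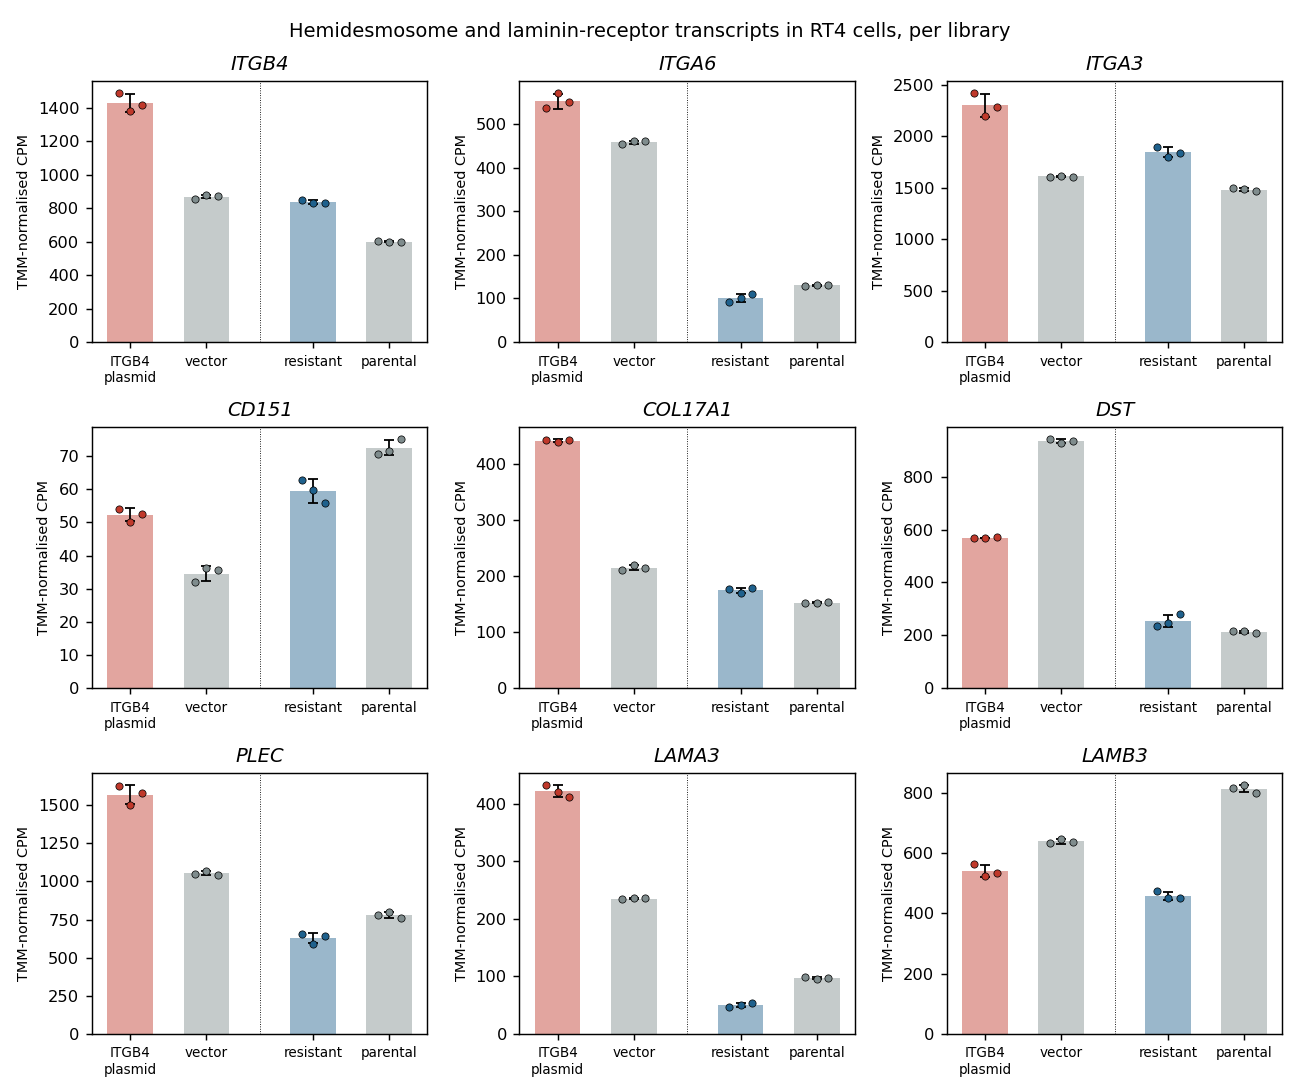
Each panel plots one of the 9 genes, with CPM scaled by TMM factors on the y axis from 0 and the 4 groups on the x axis. Each point is a library, the bar is the mean and the whisker the SD over 3 libraries. ITGB4 lies at 1379 to 1485 CPM in plasmid libraries, above the vector libraries, and the groups of each experiment do not overlap for any of the 9 genes.

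COL17A1, the transmembrane collagen of the type I hemidesmosome (chromosome 10, 104031286 to 104085957, minus strand), had the largest change of the 9 genes with plasmid over vector. It stood at 443.4, 439.4 and 443.1 CPM in plasmid libraries, against 211.5, 220.3 and 213.4 CPM in vector libraries. The plasmid libraries were 2.05-fold higher (log2 1.04 ± 0.025, approximate SE, edgeR adjusted p = 9.47e-16). In resistant libraries COL17A1 stood at 176.5, 169.5 and 177.8 CPM, against 151.4, 151.7 and 153.9 CPM in parental libraries. The groups did not overlap, and the difference was small, at 1.15-fold (log2 0.20 ± 0.041, approximate SE, edgeR adjusted p = 0.000632). It was larger with library sizes alone (log2 0.36) and with upper-quartile factors (log2 0.30).

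The plaque proteins DST and PLEC both bind keratin filaments and the β4 tail or collagen XVII, and moved in opposite directions in each experiment. DST (chromosome 6, 56457987 to 56954628, minus strand) stood at 569.4, 568.6 and 570.7 CPM in plasmid libraries, against 942.5, 928.0 and 937.5 CPM in vector libraries. It was 1.64-fold lower in plasmid libraries (log2 -0.72 ± 0.022, approximate SE, edgeR adjusted p = 1.63e-14). In resistant libraries DST stood at 235.4, 246.2 and 279.3 CPM, against 215.4, 215.9 and 208.9 CPM in parental libraries. It was higher there, by 1.19-fold (log2 0.25 ± 0.053, approximate SE, edgeR adjusted p = 0.000687), with resistant library 3 the highest. With library sizes alone the log2 value was 0.41. DST also codes for neuronal and muscle isoforms from other start sites, and the counts per gene sum them, so these values are not those of the epithelial isoform alone.

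PLEC (chromosome 8, 143915147 to 143976734, minus strand) stood at 1629, 1505 and 1580 CPM in plasmid libraries, against 1050, 1067 and 1044 CPM in vector libraries. It was 1.49-fold higher in plasmid libraries (log2 0.58 ± 0.027, approximate SE, edgeR adjusted p = 4.44e-12). In resistant libraries PLEC stood at 653.4, 590.0 and 641.5 CPM, against 779.4, 799.8 and 763.2 CPM in parental libraries. It was 1.24-fold lower there (log2 -0.31 ± 0.041, approximate SE, edgeR adjusted p = 4.14e-06), and no libraries overlapped in either experiment. The log2 value in resistance was -0.15 with library sizes alone (edgeR adjusted p = 0.00427) and -0.21 with upper-quartile factors.

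The laminin-332 chains LAMA3 and LAMB3 moved in opposite directions with plasmid over vector. LAMA3, the α3 chain (chromosome 18, 23689443 to 23956222, plus strand), stood at 432.8, 421.0 and 412.0 CPM in plasmid libraries, against 233.8, 235.6 and 235.4 CPM in vector libraries. It was 1.80-fold higher (log2 0.84 ± 0.026, approximate SE, edgeR adjusted p = 1.88e-14). Counts per gene sum all LAMA3 transcripts, so isoforms from different start sites are not told apart. LAMB3, the β3 chain (chromosome 1, 209614870 to 209652466, minus strand), stood at 563.6, 525.6 and 534.8 CPM in plasmid libraries, against 632.5, 648.9 and 636.6 CPM in vector libraries. It was 1.18-fold lower (log2 -0.24 ± 0.027, approximate SE, edgeR adjusted p = 5.17e-07).

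With resistant over parental, both chains fell. LAMA3 stood at 46.30, 49.24 and 53.47 CPM in resistant libraries, against 98.43, 95.43 and 97.16 CPM in parental libraries. This was 1.95-fold lower (log2 -0.96 ± 0.056, approximate SE, edgeR adjusted p = 1.63e-10). LAMB3 stood at 474.6, 452.4 and 450.3 CPM in resistant libraries, against 816.4, 825.6 and 801.4 CPM in parental libraries. This was 1.77-fold lower (log2 -0.83 ± 0.036, approximate SE, edgeR adjusted p = 3.02e-12). LAMA3 and LAMB3 had the largest changes of the 9 genes in this experiment, while ITGB4 and ITGA3 were higher.

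Promoter windows from RefSeq (GRCh38.p14, 250 bases before to 50 bases after a transcription start) matched 5 of the 9 genes, ITGA6, COL17A1, DST, LAMA3 and LAMB3, in 10 windows. The windows of COL17A1 and LAMA3, the genes that rose most with plasmid over vector, and the LAMB3 window that holds a motif match are shown, since LAMB3 fell in the same libraries and fell with LAMA3 in the resistant ones. Capitals mark matches, on either strand, to TGANTCA (the AP-1 motif) or TTCNNNGAA (the STAT motif, searched because the study concerns STAT3), and these do not overlap. They are LAMA3 at chr18:23872770-23873069 (plus strand), COL17A1 at chr10:104085831-104086130 (minus strand) and LAMB3 at chr1:209651325-209651624 (minus strand), each written 5′ to 3′ on the gene's strand.
LAMA3: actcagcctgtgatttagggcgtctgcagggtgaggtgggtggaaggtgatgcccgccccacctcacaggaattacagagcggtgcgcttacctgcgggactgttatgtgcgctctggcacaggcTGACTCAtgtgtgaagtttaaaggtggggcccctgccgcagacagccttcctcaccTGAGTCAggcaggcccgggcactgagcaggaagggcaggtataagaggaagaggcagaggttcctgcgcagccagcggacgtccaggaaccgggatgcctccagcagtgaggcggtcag
COL17A1: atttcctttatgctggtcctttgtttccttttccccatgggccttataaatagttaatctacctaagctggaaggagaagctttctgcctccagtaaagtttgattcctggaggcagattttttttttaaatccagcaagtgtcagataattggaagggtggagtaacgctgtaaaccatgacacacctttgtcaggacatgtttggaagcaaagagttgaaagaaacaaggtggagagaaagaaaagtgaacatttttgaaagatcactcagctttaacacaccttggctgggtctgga
LAMB3: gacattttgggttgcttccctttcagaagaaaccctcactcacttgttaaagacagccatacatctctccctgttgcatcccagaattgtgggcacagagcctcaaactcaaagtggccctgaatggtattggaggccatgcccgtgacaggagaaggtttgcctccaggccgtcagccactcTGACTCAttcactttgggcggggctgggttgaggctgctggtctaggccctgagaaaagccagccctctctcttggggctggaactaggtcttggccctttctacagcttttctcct

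TGANTCA was found in 3 of the 10 windows, against 7.71% of 35116 promoter windows in the table. The LAMA3 window holds it at 125 and 69 bases before the start, and the LAMB3 window at 67 bases before it. The third is 1 of 3 DST windows, with its match beginning at base 26 after the start. TTCNNNGAA was found in 0 of the 10 windows, against 7.66% of all windows. No window matched ITGB4, so its promoter was not searched. The 10 windows are few and some overlap, so neither share can be read as a difference from all windows. GC content was 61.7% in the LAMA3 window and 40.7% in the COL17A1 window, against a median of 58.7% over all windows. A match is a description of letters in these windows.

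The 2 experiments were compared in a single fit of all 12 libraries. The difference of the log2 fold changes (plasmid over vector, minus resistant over parental) passed for all 9 genes (edgeR, Benjamini-Hochberg adjustment over 18516 genes), against a background of 61.8% called (30.2% higher and 31.6% lower), with 8 positive and 1 negative. It was largest for LAMA3, at 1.78 ± 0.057 (approximate SE, edgeR adjusted p = 3.17e-16). DST was the 1 gene with a negative difference, at -0.99 ± 0.061 (approximate SE, edgeR adjusted p = 1.26e-11). PLEC, CD151 and COL17A1 differed by 0.87, 0.86 and 0.82, and ITGA6 and LAMB3 by 0.60 and 0.56.

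For ITGB4 and ITGA3 the difference was small, at 0.21 (edgeR adjusted p = 0.00017) and 0.18 (edgeR adjusted p = 0.00184). Neither call held with library sizes alone (ITGB4 0.03, edgeR adjusted p = 0.505, and ITGA3 -0.0036, edgeR adjusted p = 0.957) or with upper-quartile factors (ITGB4 0.06, edgeR adjusted p = 0.192, and ITGA3 0.03, edgeR adjusted p = 0.593). These scalings moved the median difference of all genes to -0.22 and -0.19, against -0.05 with TMM factors. By direction, ITGB4, COL17A1 and ITGA3 were called higher in both experiments, LAMB3 lower in both, and ITGA6, PLEC, LAMA3 and CD151 higher with plasmid and lower in resistant cells. DST alone was lower with plasmid and higher in resistant cells. Of 15655 genes tested in both experiments, 44.8% were called in both. The 3 genes higher in both stand against 7.11% of these genes, the 1 gene lower in both against 7.72%, and the 5 of opposite direction against 30%.

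**Figure D2:**
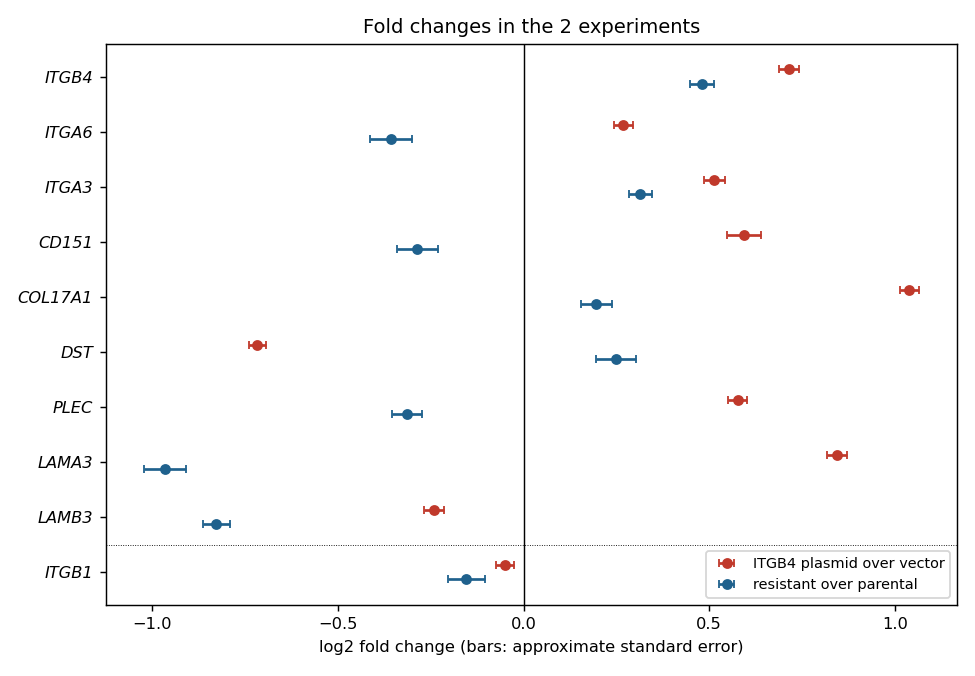
The log2 fold changes of the 9 genes, with ITGB1, are plotted for plasmid over vector and for resistant over parental, with bars of 1 approximate standard error. LAMA3 lies at 0.84 in one comparison and -0.96 in the other, while ITGB4 lies above 0 in both, at 0.71 and 0.48.

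Levels per kilobase of exon put ITGB4 and ITGA3 at or near the top in every group. In plasmid libraries the order began with ITGA3 at 234 ± 11.03 CPM per kilobase and ITGB4 at 211 ± 7.93, followed by LAMB3 at 115 ± 4.22. In vector libraries ITGA3 stood at 164 ± 0.518, LAMB3 at 136 ± 1.81 and ITGB4 at 129 ± 1.62 CPM per kilobase, so ITGB4 and LAMB3 stood in the reverse order there. In resistant libraries the leading levels were ITGA3 at 188 ± 4.99, ITGB4 at 124 ± 1.39 and LAMB3 at 97.9 ± 2.87 CPM per kilobase. In parental libraries they were LAMB3 at 174 ± 2.60, ITGA3 at 151 ± 1.33 and ITGB4 at 88.7 ± 0.310 CPM per kilobase.

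Neighbours in this order overlapped over libraries in 2 places. DST and CD151, at the bottom in plasmid libraries, stood at 13.5 and 13.3 CPM per kilobase, and ITGA6 and CD151 in resistant libraries at 15.5 and 15.1. In vector and parental libraries no neighbours overlapped. LAMA3 was the lowest in resistant libraries, at 3.38 CPM per kilobase, against 6.61 in parental libraries, in which DST was the lowest at 5.04. Lengths are of all annotated exons of a gene together, 42341 bases for DST, so genes with long isoforms that these cells may not use are placed too low.

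**Figure D3:**
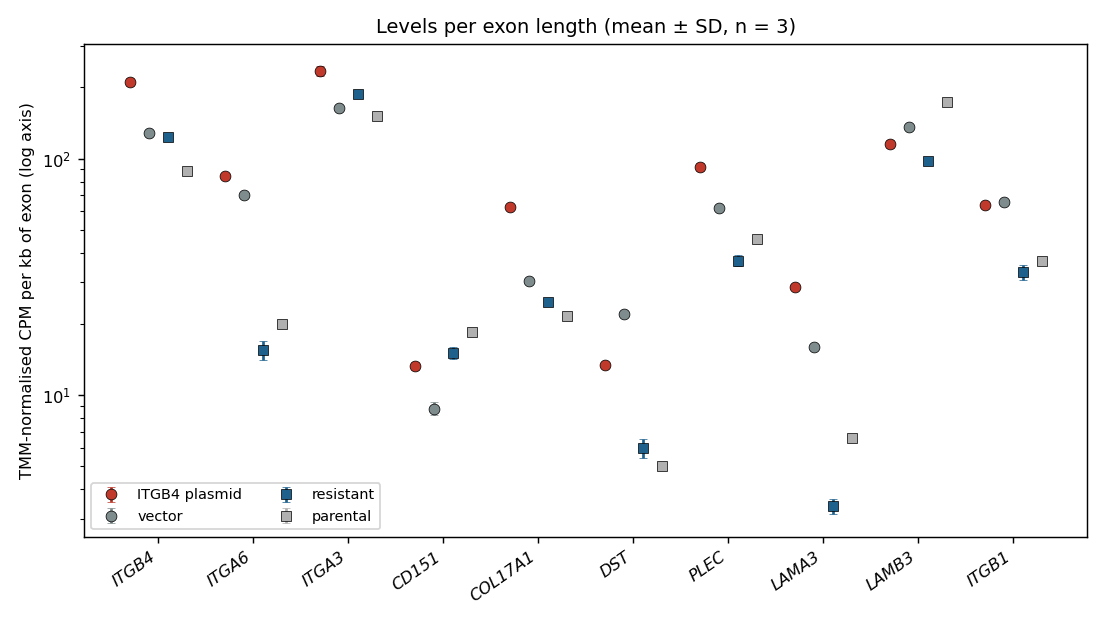
Levels of the 9 genes, with ITGB1, in CPM per kilobase of exon are shown on a logarithmic y axis for each group, as the mean and SD over 3 libraries. Of the 9, ITGA3, ITGB4 and LAMB3 hold the upper places in all 4 groups, and LAMA3 lies at 3.38 in resistant libraries against 6.61 in parental libraries.

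Ratios within a library, from levels per kilobase, describe transcripts of partner genes and not proteins in a complex. ITGB4 over ITGA6 was 2.68, 2.34 and 2.48 in plasmid libraries (mean 2.50 ± 0.170), against 1.83 ± 0.010 in vector libraries. It was 8.85, 7.96 and 7.23 in resistant libraries (mean 8.02 ± 0.810), against 4.46 ± 0.069 in parental libraries. In both experiments the ratio was higher in all 3 libraries, by 1.36-fold with plasmid and 1.80-fold in resistant cells. With plasmid, ITGB4 counts can include reads of the plasmid itself, so the 2 increases are not alike in kind. The ratio of ITGA3 to ITGA6 was likewise higher in every such library, at a mean of 2.78 in plasmid and 2.34 in vector libraries, and 12.2 in resistant and 7.59 in parental libraries.

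Among the laminin chains, LAMA3 over LAMB3 was 0.249 in plasmid libraries, against 0.117 in vector libraries, a 2.12-fold difference with no overlap. It was 0.0346 in resistant and 0.0380 in parental libraries, where the groups overlapped. In the plaque, COL17A1 over DST was 4.65 in plasmid libraries, against 1.38 in vector libraries, a 3.38-fold difference. In the resistance experiment it was 4.14 in resistant and 4.28 in parental libraries, with overlap, while PLEC over DST was 6.20 in resistant and 9.12 in parental libraries, without overlap. With 3 libraries against 3, an exact permutation test of a ratio cannot go below p = 0.1, so none was run.

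**Figure D4:**
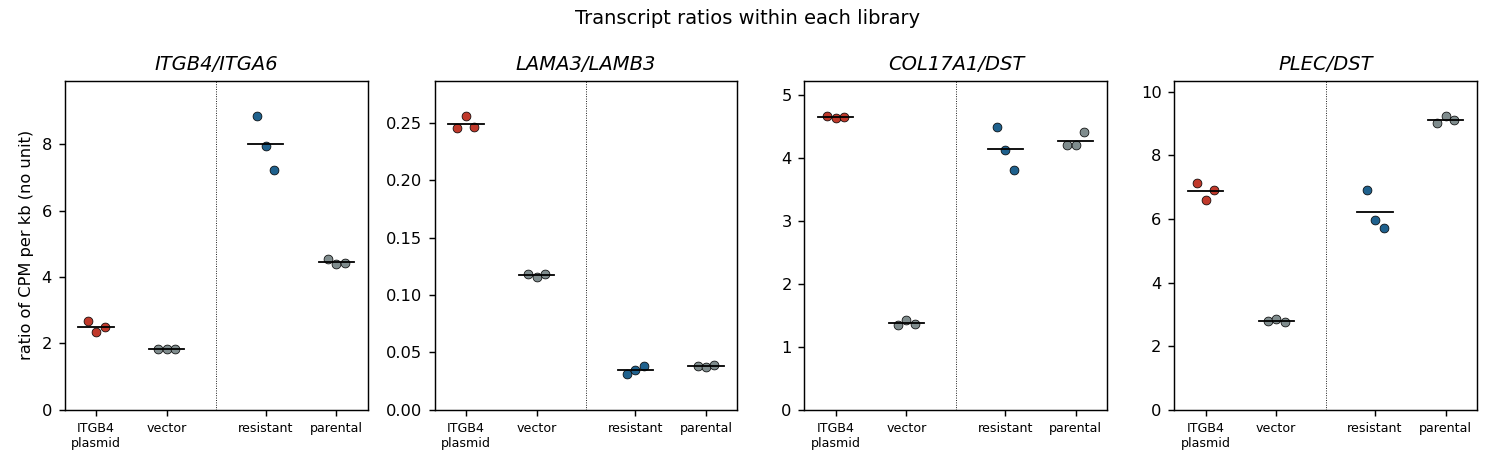
Each of 4 panels plots a ratio of levels per kilobase between partner genes on a y axis from 0, with a point for each library and a line at the mean of 3 libraries. ITGB4 over ITGA6 reaches 7.23 to 8.85 in resistant libraries, against a mean of 4.46 in parental libraries, and COL17A1 over DST averages 4.65 in plasmid libraries against 1.38 in vector libraries.

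Another 5 lists hold 85 genes around the hemidesmosome. Their counts stand against 36.5% of all genes tested called higher and 35.7% called lower with plasmid over vector, and 26.8% higher and 27.7% lower with resistant over parental. Of 25 basement membrane components, 23 were tested with plasmid over vector, and 7 were higher and 11 lower, with a median log2 fold change of -0.21. These 18 called genes of 23 are near the background of 72.2%. NID1, which bridges laminin and collagen IV, rose 3.11-fold, at 395 ± 12.3 CPM in plasmid libraries and 127 ± 2.84 CPM in vector libraries. COL4A4, a collagen IV chain, was 3.06-fold lower, at 15.2 ± 0.193 CPM in plasmid and 46.6 ± 0.666 CPM in vector libraries. FRAS1, an extracellular matrix protein of epithelial basement membranes, was 2.85-fold lower, at 50.1 ± 0.980 CPM in plasmid and 143 ± 1.32 CPM in vector libraries. With resistant over parental, 22 were tested, and 12 were higher and 7 lower, with a median of 0.25.

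In the resistance experiment LAMB2, the β2 laminin chain, was higher, at 77.4 ± 2.57 CPM in resistant and 37.3 ± 1.53 CPM in parental libraries. LAMA1, the laminin α1 chain, was called higher on few reads, at 2.42, 2.94 and 2.62 CPM in resistant libraries and 0, 0.121 and 0 CPM in parental libraries. LAMB2 and LAMA1 were thus higher in the cells in which LAMA3 and LAMB3 fell, but other laminin chains did not all rise. LAMA5 was lower, at 347 CPM in resistant and 455 CPM in parental libraries (log2 -0.39, edgeR adjusted p = 1.77e-07). LAMC1 (log2 -0.27) and LAMA4 (log2 -0.16) were called lower too. LAMB1 was called higher (log2 0.19), and LAMA2 did not pass (edgeR adjusted p = 0.838). The smaller of these changes were not examined singly under other scalings.

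Of 13 genes for processing and anchoring of laminin-332 and collagen XVII, 11 were tested in each experiment. With plasmid over vector 7 were higher and 3 lower, with a median log2 fold change of 0.21. P4HA1, a collagen prolyl hydroxylase, rose to 159 ± 2.64 CPM in plasmid libraries, against 101 ± 1.5 CPM in vector libraries, and FERMT1 (kindlin-1) to 132 ± 3.12 CPM, against 92.4 ± 1.06 CPM. MMP14, a membrane metalloproteinase that activates other proteases and cleaves matrix proteins, moved in opposite directions. It was lower with plasmid, at 446 ± 18.2 CPM in plasmid and 641 ± 2.68 CPM in vector libraries, and higher in resistance, at 494 ± 22.2 CPM in resistant and 333 ± 2.28 CPM in parental libraries. ADAM9 and ADAM10, which can shed collagen XVII, were lower in resistant libraries, at 88.4 ± 5.13 and 324 ± 17.1 CPM, against 135 ± 1.99 and 514 ± 9.35 CPM in parental libraries. In resistance 5 of the 11 were higher and 6 lower, with a median of -0.34.

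Of 13 other laminin receptors and tetraspanins, all tested, 3 were higher and 8 lower with plasmid over vector (median log2 fold change -0.17), and 3 were higher and 5 lower with resistant over parental (median -0.04). DAG1 (dystroglycan) was 1.70-fold lower with plasmid, at 262 ± 4.10 CPM in plasmid and 445 ± 4.11 CPM in vector libraries. CD44, the hyaluronan receptor, was lower as well, at 546 ± 12.4 CPM in plasmid and 669 ± 7.01 CPM in vector libraries. BCAM, a receptor for the laminin α5 chain, was higher in resistance, at 105 ± 6.23 CPM in resistant and 59.9 ± 4.71 CPM in parental libraries, while SDC4 (syndecan-4) was lower, at 345 ± 13.2 CPM in resistant and 537 ± 4.91 CPM in parental libraries. CD44 was lower in resistance too (232 CPM in resistant and 333 CPM in parental libraries), and DAG1 was called higher there (158 and 142 CPM). With plasmid, SDC4 was lower as well (356 CPM in plasmid and 418 CPM in vector libraries), and BCAM was called lower (72.1 and 78.9 CPM). CD82, a tetraspanin, was higher with plasmid, at 209 ± 8.63 CPM in plasmid and 158 ± 3.87 CPM in vector libraries. In resistance it was 2.27-fold lower, at 79.2 ± 1.61 CPM in resistant and 180 ± 3.90 CPM in parental libraries.

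Of 11 plakins, keratins and related genes, 10 were tested with plasmid over vector, and 6 were higher and 3 lower, with the highest list median, 0.52. PPL (periplakin) stood at 148 ± 7.18 CPM in plasmid and 64.8 ± 0.213 CPM in vector libraries, EPPK1 (epiplakin) at 45.3 ± 1.80 and 17.7 ± 0.613 CPM, and KRT18, a simple-epithelium keratin, at 500 ± 12.3 and 308 ± 5.06 CPM. With resistant over parental, all 11 were tested, and 5 were higher and 4 lower, with a median of -0.09. KRT18 was higher there too, at 703 ± 50.9 CPM in resistant and 501 ± 12.2 CPM in parental libraries. KRT5, the basal keratin that hemidesmosomes anchor in skin, was at 3.98, 4.70 and 4.07 CPM in resistant libraries, against 0.111, 0.0301 and 0.533 CPM in parental libraries. KRT14 did not pass the test, at 0.681 CPM in resistant and 1.05 CPM in parental libraries. TP63 was called lower by a small margin, at 253 CPM in resistant and 279 CPM in parental libraries (log2 -0.14, edgeR adjusted p = 0.0152). It was not examined singly under other scalings. With plasmid over vector TP63 was called higher, at 359 CPM in plasmid and 285 CPM in vector libraries (log2 0.34). ERBIN, which binds the β4 tail, was lower, at 179 ± 11.3 CPM in resistant and 242 ± 5.23 CPM in parental libraries. Keratin genes have near-identical copies, so how the authors' counting split shared reads is uncertain.

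Of 23 kinases and adaptors at the β4 tail, all tested, 10 were higher and 8 lower with plasmid over vector (median log2 fold change 0.02), and 3 were higher and 17 lower with resistant over parental (median -0.33, against 0.02 for all genes tested). SFN (14-3-3σ) was 2.64-fold higher with plasmid, at 606 ± 22.0 CPM in plasmid and 230 ± 3.49 CPM in vector libraries, and SHC1, an adaptor that binds the phosphorylated β4 tail, was 2.25-fold higher, at 205 ± 5.47 and 91.1 ± 2.60 CPM. PIK3R1, the p85α subunit of PI 3-kinase, was 1.85-fold lower, at 93.2 ± 1.49 CPM in plasmid and 172 ± 2.49 CPM in vector libraries. In resistance SFN was lower, at 306 ± 29.9 CPM in resistant and 529 ± 15.9 CPM in parental libraries, as was ERBB3, at 178 ± 13.5 and 310 ± 1.83 CPM. FYN, the Src-family kinase linked to α6β4 signalling, was higher, at 12.7 ± 0.503 CPM in resistant and 4.17 ± 0.696 CPM in parental libraries. STAT3, which the study concerns, did not pass with plasmid over vector (edgeR adjusted p = 0.141) and was lower in resistance (log2 -0.45, edgeR adjusted p = 1.74e-08).

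**Figure D5:**
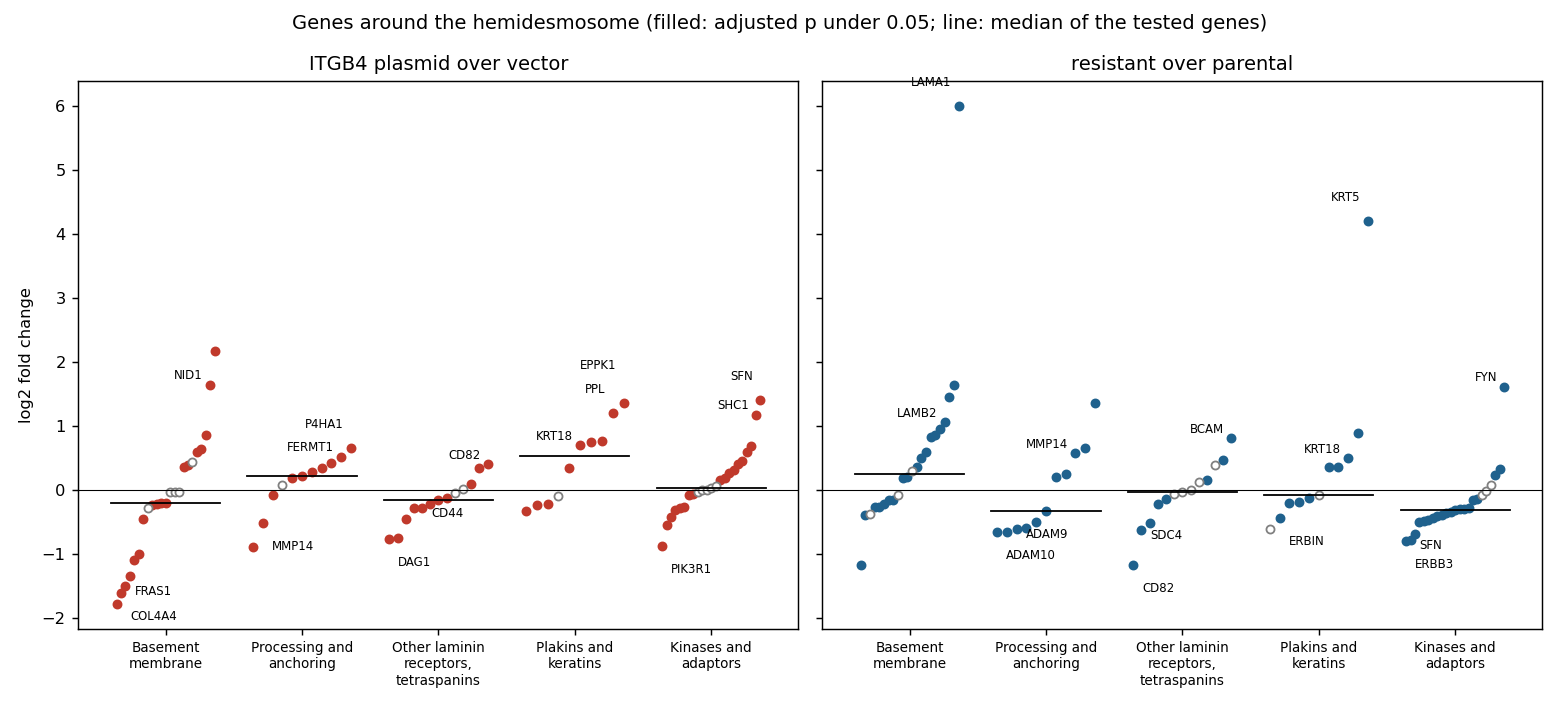
Log2 fold changes of the tested genes of the 5 lists are plotted for plasmid over vector on the left and resistant over parental on the right, with filled points for an adjusted p under 0.05, a line at each list's median and names for some of the genes described. The kinases and adaptors have a median of 0.02 on the left and -0.33 on the right, and the fitted values of LAMA1 and KRT5 on the right rest on few reads in parental libraries.

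Genes with the pair of log2 fold changes nearest to that of ITGB4, among 5074 protein-coding genes called in both experiments with a mean of at least 10 CPM in each, were CDK10, KRT18, WDR90, RWDD2B and NYNRIN, at Euclidean distances of 0.0141 to 0.0501 over the 2 comparisons. Within a distance of 0.1 lay 13 genes. For ITGA6 the nearest included NBPF14, SLC37A2, TBC1D23 and ZDHHC3, at 0.0112 to 0.0165, and 175 genes lay within 0.1. NBPF14 has near-identical copies, so its counts are uncertain.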

How the data were processed

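The authors deposited a table of raw counts per gene for each experiment. Per the file headers, they counted overexpression read pairs by exon with featureCounts 2.0.1 (Ensembl 107, GRCh38) and set no strand option, so reads from opposite strands are mixed. The sources used here do not give the aligner or counter of the resistance table. Per the submitters' processing notes, the build was hg38. Per the labels' protocols, a directional kit was used on total RNA. The overexpression table lists all mitochondrial genes at 0.

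Groups came from the sample titles, and the parental columns were assigned by inference. Replicate libraries differed by more than sampling noise, with a chi-square per degree of freedom of 1.54 to 12.2. It was highest among resistant libraries, at 5.68 to 12.2, and lowest among vector libraries, at 1.54 to 1.71. No label says whether replicates are separate cultures. P-values therefore measure only the spread among libraries, possibly technical.

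Genes passing filterByExpr were tested in each experiment with edgeR's quasi-likelihood test and TMM factors (edgeR 4.0.16, R 4.3.3). P-values were adjusted by the Benjamini-Hochberg method over all genes tested, and an adjusted p under 0.05 is called. A joint model of the 12 libraries, with 4 group means, tested the difference between experiments. Approximate standard errors are the absolute log2 fold change over the square root of F. CPM values use TMM library sizes and were computed separately for each table. No table gave the exon lengths that the plan assumed, so levels per kilobase use the union of exons in GENCODE 29. A symbol was found for 61757 of 61860 identifiers (overexpression) and 62700 of 62700 (resistance). The procedure was tested on simulated data.

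The members and lists were chosen with earlier results of these data known. The text names the 9 members, ITGB1, up to 3 called genes per list and comparison with the smallest adjusted p and a mean of at least 1 CPM, and the 5 nearest genes in pattern to ITGB4 and ITGA6. STAT3 was named outside this rule, as were LAMA2, LAMA4, LAMA5, LAMB1, LAMC1, KRT14, CD44 and DAG1 in resistance. BCAM and SDC4 with plasmid, and TP63 in both experiments, were outside it as well. Some genes that the rule takes are not reported here. Alternatives were DESeq2 1.42.0, limma-voom (limma 3.58.1), other scalings and low-count filters, a 1.5-fold threshold (glmTreat), a joint fit, a replicate block and leaving out each library. The background over genes of at least 30 CPM was chosen after seeing the data.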

Additional observations from a re-analysis of the deposited data

Results flagged for a closer look

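For each of the 9 genes, which had been listed by symbol, the change with plasmid over vector differed from the change with resistant over parental in a test of the difference itself (edgeR quasi-likelihood test, adjusted over 18516 genes, of which 61.8% were called). The difference of log2 fold changes was 1.78 for LAMA3, 0.87 for PLEC, 0.86 for CD151, 0.82 for COL17A1, 0.60 for ITGA6 and 0.56 for LAMB3. It was -0.99 for DST. For ITGB4 and ITGA3 it was 0.21 and 0.18, and both calls depended on the scaling. LAMB3 was lower in both experiments, and COL17A1, ITGB4 and ITGA3 higher in both, so that for these 4 genes the sizes differed and not the directions. Medium, treatment and table differ together between the experiments and cannot be told apart in this difference. Groups of 3 libraries were not tested for a library that stands apart.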

How the results depend on the processing

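Tested for a change over 1.5-fold with glmTreat, 3818 genes were called with plasmid over vector, against 12234 without a fold threshold, and 2107 with resistant over parental, against 9199. Of the 9 members, 4 passed with plasmid (ITGB4, COL17A1, LAMA3 and DST) and 2 in resistance (LAMA3 and LAMB3), where ITGB4 (log2 0.48) did not. By list, in the order of the report, 8, 2, 2, 5 and 4 genes were called over 1.5-fold with plasmid, against 18, 10, 11, 9 and 18, and 5, 1, 2, 2 and 3 in resistance, against 19, 11, 8, 9 and 20. With library sizes alone, calls with resistant over parental split into 6548 higher and 3111 lower, and with upper-quartile factors into 5761 and 3584, against 4520 and 4679 with TMM factors. The difference between experiments split into 4422 higher and 7250 lower and into 4615 and 6979 under the same scalings, against 5585 and 5857. Under them the difference of log2 fold changes between experiments was 0.0317 and 0.0646 for ITGB4 and -0.0036 and 0.03 for ITGA3. CD151 in resistance lost its call with library sizes alone (log2 -0.12), which also moved the resistance values of ITGA6, ITGA3, COL17A1, DST and PLEC by over 1.5 times with the calls kept. Leaving out each library in turn, the genes called ranged over 11696 to 12389 with plasmid, 8331 to 9024 in resistance and 10879 to 11591 for the difference, and all 9 members stayed called in each. With no length correction, 3, 2, 3 and 1 of the 9 members kept their place in the order of levels in plasmid, vector, resistant and parental libraries. With the replicate number as a block, 12070 genes and all 9 members were called with plasmid over vector. Libraries of the same number did not deviate together (r = -0.0172, -0.0208 and -0.0130), so the numbers were not taken as pairs. For resistance, no paired analysis was possible because the parental columns carry no number tied to a sample. The cause of these shifts was not tested.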

Other observations

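The 2 control groups differed in the levels of these genes, although both are RT4 cells without an ITGB4 plasmid or cisplatin resistance. DST stood at 936 CPM in vector libraries and 213 CPM in parental libraries, a ratio of 4.39. The ratio was 3.53 for ITGA6, 2.42 for LAMA3, 1.45 for ITGB4, 1.41 for COL17A1, 1.35 for PLEC, 1.09 for ITGA3, 0.785 for LAMB3 and 0.477 for CD151. Over 15655 genes the median ratio, taken in whichever direction is above 1, was 1.40. The control groups come from separate tables with separate scaling and from different media, so these values were not tested.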
